A study of Homo sapiens with 9 samples.

Results

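Integrin subunits and laminin chains were described in A431 cells with and without mutant p53. Members were chosen by gene symbol: every integrin alpha chain (ITGA followed by a number, V, E, L, M, X, D or 2B), every integrin beta chain (ITGB followed by a number) and every laminin alpha, beta or gamma chain (LAMA, LAMB or LAMC followed by a number). The rule found 38 of 58051 genes in the count table, and no measured value entered it. A431 is an epidermoid carcinoma cell line that carries mutant p53. RNA was sequenced from 3 groups of 3 libraries each. A431 parental cells were not edited, Ctrl cells went through the CRISPR procedure with an empty vector and kept mutant p53, and p53 KO cells had p53 deleted by CRISPR. All groups were grown in DMEM with serum and were not treated further. Per the labels, the cells were first grown as single colonies. Whether the 3 libraries of a group came from 1 clone or from separate cultures is not stated. The p-values therefore measure the spread between these libraries, which may be technical. A difference between clones and an effect of p53 loss cannot be told apart. This holds against either control and against both, as the same p53 KO libraries are used.

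Integrins are receptors made of an alpha and a beta chain that tie the cytoskeleton to the extracellular matrix. Laminins are trimers of an alpha, a beta and a gamma chain that form the sheet of the basement membrane under epithelia. In epidermis, laminin with LAMA3 and LAMB3 lies beneath the basal keratinocytes and is held by ITGA6 with ITGB4 in hemidesmosomes and by ITGA3 with ITGB1 at focal adhesions. LAMA5 with LAMB1 or LAMB2 and LAMC1 forms the other main laminins of epithelial basement membranes, and LAMA4 is known from vessel walls and mesenchymal tissue. ITGB1 pairs with most alpha chains, whereas ITGAV pairs with ITGB5, ITGB6 and ITGB8 to bind ligands such as fibronectin and vitronectin.

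Of the 38 members, 25 had enough counts to be tested and 13 did not. ITGA4, ITGA8, ITGA9, ITGB3 and LAMC3 held 0 counts in all 9 libraries, which allows up to 3 counts a library, and ITGA11, ITGA2B, ITGAD, ITGAL and LAMB4 held at most 3 counts in any library. ITGA10, ITGAX and ITGB2 reached at most 12, 10 and 6 counts. The chains known from leukocytes and platelets were thus at or near the limit of detection, except ITGAE, ITGAM and ITGB7.

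Promoter sequences were looked up in RefSeq (GRCh38.p14) for all members, and 26 of the 38 members had an entry. ITGB4, which also differed from both controls, had none. Those shown were chosen because LAMA3 and LAMB3 were higher and ITGB1 and LAMA4 were lower in p53 KO cells than in both controls. Each holds the 250 bases before the RefSeq start, read in the direction of the gene, with capitals for TGANTCA (AP-1), GGGCGG (GC box) and GGAATG (TEAD) on either strand. They lie at chr18:23872770-23873019 (LAMA3, plus strand), chr1:209652426-209652675 (LAMB3, minus), chr10:32958231-32958480 (ITGB1, minus) and chr6:112254568-112254817 (LAMA4, minus).
LAMA3: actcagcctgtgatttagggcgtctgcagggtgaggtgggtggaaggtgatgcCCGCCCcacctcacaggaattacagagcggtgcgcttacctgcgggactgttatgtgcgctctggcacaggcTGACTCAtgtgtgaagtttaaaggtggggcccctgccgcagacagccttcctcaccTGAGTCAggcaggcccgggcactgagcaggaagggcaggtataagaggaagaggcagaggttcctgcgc
LAMB3: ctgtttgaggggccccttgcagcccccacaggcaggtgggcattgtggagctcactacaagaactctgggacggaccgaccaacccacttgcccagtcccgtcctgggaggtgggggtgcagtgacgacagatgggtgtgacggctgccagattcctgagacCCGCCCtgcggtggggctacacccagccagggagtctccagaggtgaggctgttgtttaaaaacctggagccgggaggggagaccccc
ITGB1: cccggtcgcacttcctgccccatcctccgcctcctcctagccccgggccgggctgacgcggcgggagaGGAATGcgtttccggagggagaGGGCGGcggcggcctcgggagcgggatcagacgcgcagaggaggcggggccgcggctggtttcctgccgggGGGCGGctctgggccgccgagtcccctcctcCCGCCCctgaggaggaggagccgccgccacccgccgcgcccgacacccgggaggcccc
LAMA4: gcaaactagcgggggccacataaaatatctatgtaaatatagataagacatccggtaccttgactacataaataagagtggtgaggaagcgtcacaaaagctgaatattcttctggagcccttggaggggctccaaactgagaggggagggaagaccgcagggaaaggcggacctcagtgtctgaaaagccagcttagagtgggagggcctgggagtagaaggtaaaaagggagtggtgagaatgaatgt
The LAMA3 window held the AP-1 letters at 125 and 69 bases before the start and a GC box at 197. No other of the 26 members with an entry held the AP-1 letters, which were in 6.57% of 35116 promoters of this length. The LAMB3 window held a GC box at 88 bases, and the ITGB1 window held GC boxes at 160, 89 and 58 and the TEAD letters at 182. In the LAMA4 window none of the letters occurred. GC boxes were found in 13 of the 26 members (42.6% of all promoters) and the TEAD letters in 4 (11.9%). The RefSeq start of LAMA3 lies 183567 bases inside the gene as annotated by GENCODE, and that of ITGB1 47562 bases inside. The counts pool all transcripts of a gene, and so do not tell which start was used.

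Library totals ran from 19783778 to 29840452 gene counts. Ctrl replicate 1 stood apart from its group, with Pearson correlations across genes of 0.988 and 0.990 against 0.997 between the other two. It held the fewest counts of all libraries, and its tested members lay at a median of -0.30 on the log2 scale from the mean of the other libraries of its group. In this library genes with at least 8.557 kb of exon deviated by a median of -0.25 and those with at most 2.313 kb by 0.21. p53 KO replicate 3 deviated in the same direction (-0.12 for members and for long genes, 0.12 for short genes), and 12 of the 25 members tested are in the long class and 0 in the short one. Calls that changed when these libraries were left out are given with the members. Of 10 keratinocyte markers 9 were tested. KRT14, a keratin of basal keratinocytes, was not: it held 0 to 3 counts in the control libraries and 7 to 13 in p53 KO libraries. Levels are given in CPM, as counts normalized to library size by TMM and scaled to CPM. All 10 summed to 16564 to 19810 CPM in parental, 15539 to 16208 in p53 KO and 11070 to 13420 in Ctrl cells. EGFR, which A431 cells carry in many copies, made up 78.3% to 87.4% of this sum, and without it the sum was 2208 to 2490, 2465 to 2503 and 2405 to 2421 CPM. Among the other markers KRT6A was 2.35 and 2.75 higher on the log2 scale in p53 KO than in parental and Ctrl cells (adjusted p = 2.14e-07 and 2.39e-08) and CDH1, or E-cadherin, was at -0.32 and -0.33 (0.0245 and 0.014). KRT5 and EPCAM were at 0.43 and 0.23 against parental cells (0.00387 and 0.0236) but at -0.02 and 0.15 against Ctrl cells (0.895 and 0.0996, all by edgeR). In Ctrl against parental cells KRT5 was at 0.45 (adjusted p = 0.00351), KRT17 at -0.63 (0.00502), KRT6A at -0.40 (0.0171) and EGFR at -0.65 (0.00128). EGFR was at 0.42 in p53 KO against Ctrl cells (0.00846). The part of these changes in the results was not tested. Of the defining markers of other cell types, 5 of 7 for fibroblasts, 3 of 5 for endothelium and 5 of 7 for leukocytes held at most 3 counts in any library, and all 4 for platelets were at 0. The summed levels of these lists reached 4.42, 0.703, 1.64 and 0 CPM. PTPRC and CD3E were at 0. In bulk RNA, fewer cells that express a gene and less RNA per cell cannot be told apart.

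Laminin receptors led the levels. Per kb of exon, the highest member in parental cells was ITGA6 (126 ± 9.98 CPM per kb, SD, n = 3), and ITGB4 (65.6 ± 3.68), ITGA3 (60.8 ± 2.79), ITGB1 (51.4 ± 1.43) and LAMB3 (36.2 ± 2.87) were among the highest. ITGB4 and ITGA3 did not differ beyond their spread. A wide step separated LAMB3 from LAMC1 (20.2 ± 2.39) and ITGB5 (19.0 ± 0.315), which also lay within their spread of each other. ITGA5, the fibronectin receptor chain, had 13.5 ± 0.442, LAMA5 9.92 ± 0.972, LAMA3 8.15 ± 0.533, ITGAV 7.92 ± 0.264 and LAMA4 4.02 ± 0.318. LAMA3 was thus far below LAMB3, and LAMA5 was below LAMC1. With the longest annotated transcript in place of all exons, 9 of the 10 highest members were the same and ITGB1 moved from rank 5 to rank 2 (133 CPM per kb). By that length ITGA3 (109) was above ITGB4 (75.2), and LAMB1 moved from rank 12 to rank 8 (25.6). The step below LAMB3 (39.0) was smaller, with ITGB5 at 27.9 and LAMC1 at 21.6. ITGA1, ITGB7, ITGAM, ITGA7, LAMA1 and LAMA2 were all at 0.194 CPM per kb or less in parental cells.

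**Figure D1:**
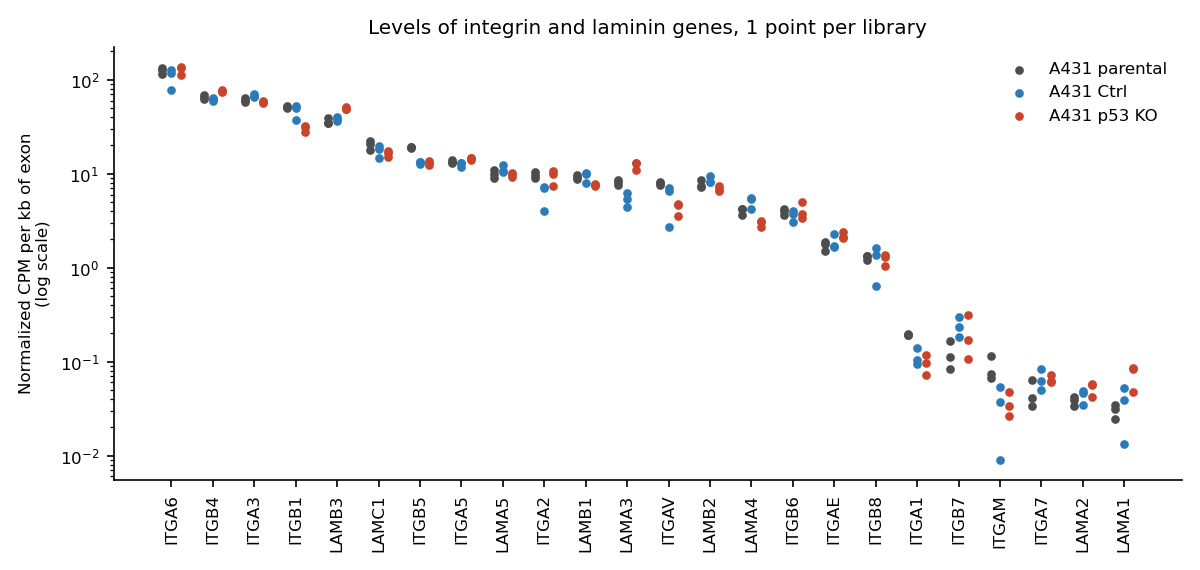
Level of tested members in each library, as normalized CPM per kb of exon on a log scale, ordered by the mean in parental cells, with 1 point per library. ITGA6 leads at 126 CPM per kb in parental cells, and the low members from ITGA1 to LAMA1 lie at 0.194 or less there.

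Against parental cells, 8 of the 25 tested members passed the test in p53 KO cells (edgeR's quasi-likelihood test, adjusted p at most 0.05), 3 higher and 5 lower. This is 32% of the members against 18.1% of the 14513 genes tested (9.77% higher and 8.36% lower). Against Ctrl cells, 9 members passed, 4 higher and 5 lower, or 36% against 29.2% of all genes tested (15% higher and 14.2% lower). The median log2 fold change of the members was -0.05 and 0.02 in the 2 comparisons, beside 0.01 over all genes tested in each. No member went beyond a log2 fold change of 1.5 while passing the test by edgeR or DESeq2, which 1.95% and 3.29% of the genes tested did by edgeR, and 13 and 11 members had an unadjusted p under 0.05. The comparisons share the p53 KO libraries. In both of them LAMA3, LAMB3 and ITGB4 were higher and ITGB1 and LAMA4 were lower, which makes 5 members of 25, where 11.7% of all genes tested passed against both controls in 1 direction (6.46% higher and 5.25% lower). The count against parental cells was 5 without parental replicate 3 or p53 KO replicate 3 and 13 without Ctrl replicate 1, where 11.6%, 12.2% and 33.9% of all genes tested passed. The count against both controls was 3, 3 and 8 in these cases, beside 8.25%, 8.71% and 19.9% of all genes, and LAMA3, LAMB3 and ITGB1 were among the members in each.

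**Figure D2:**
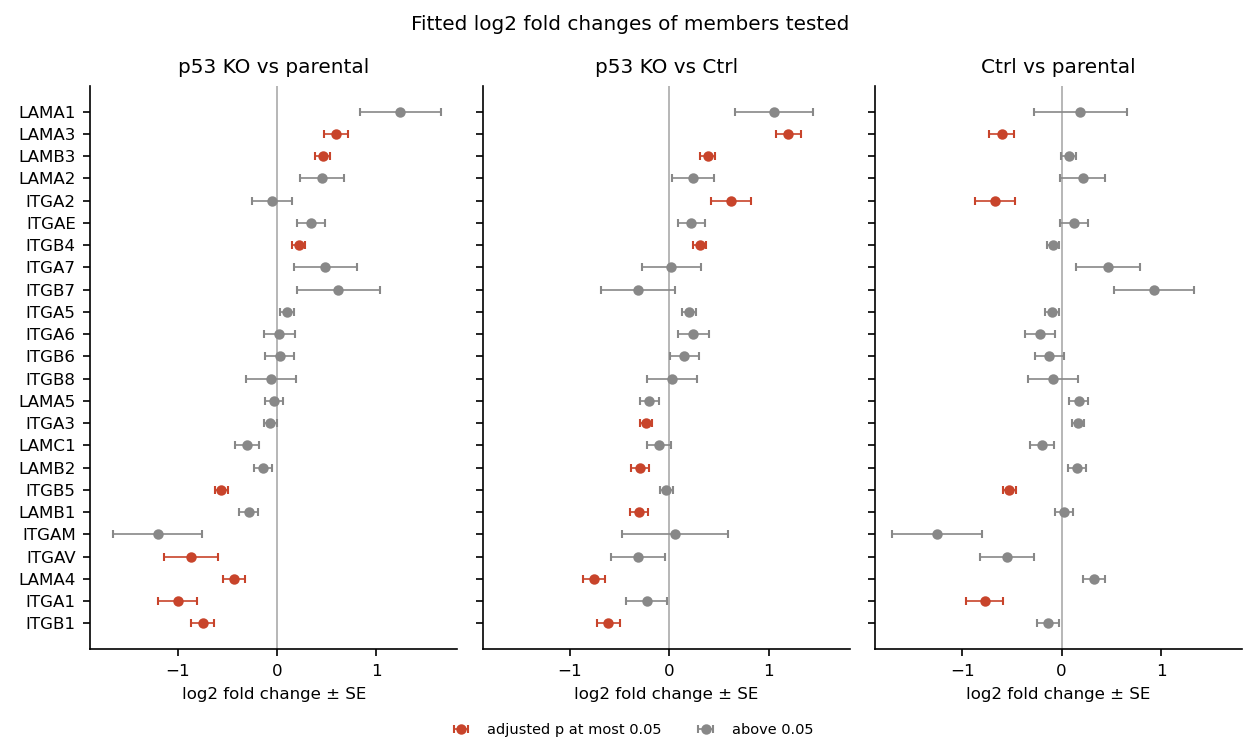
Fitted log2 fold change of tested members with its standard error, in the 3 comparisons, with members that passed the test (adjusted p at most 0.05) in red. LAMA3, LAMB3 and ITGB4 lie above 0 and ITGB1 and LAMA4 below 0 in both comparisons of p53 KO cells.

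The epidermal laminin chains LAMA3 and LAMB3 rose in p53 KO cells against both controls. LAMA3 was at 125, 110 and 119 CPM in the 3 parental libraries, at 63.3, 78.1 and 91.3 in the Ctrl libraries and at 188, 188 and 158 in the p53 KO libraries. The groups did not overlap, and Ctrl cells were the lowest. The log2 fold change of LAMA3 was 0.59 ± 0.12 (SE) against parental cells (1.51-fold, adjusted p = 0.00713) and 1.20 ± 0.13 against Ctrl cells (2.29-fold, adjusted p = 4.97e-05). LAMA3 also fell in Ctrl against parental cells (-0.60 ± 0.13, adjusted p = 0.00768), so that the difference from Ctrl cells holds a change of the control.

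LAMB3 was at 183, 162 and 159 CPM in parental, 186, 177 and 167 in Ctrl and 227, 226 and 240 in p53 KO libraries. All p53 KO libraries were above all controls, which overlapped each other. Its log2 fold change was 0.46 ± 0.08 against parental (adjusted p = 0.00182) and 0.39 ± 0.08 against Ctrl cells (adjusted p = 0.0027).

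The chains of the LAMA5 trimers moved less. LAMA5 was at 156, 141 and 128 CPM in parental, 149, 153 and 177 in Ctrl and 141, 145 and 131 in p53 KO libraries, which overlap, and did not pass against either control (-0.03 ± 0.09 with adjusted p = 0.859, and -0.20 ± 0.09 with adjusted p = 0.131), but it passed against Ctrl cells without Ctrl replicate 1 (-0.25, adjusted p = 0.0332). LAMC1 was at 189, 149 and 174 CPM in parental, 123, 156 and 168 in Ctrl and 146, 141 and 129 in p53 KO libraries, and did not pass either (adjusted p = 0.113 and 0.57). Against parental cells LAMC1 passed without Ctrl replicate 1 (-0.31, adjusted p = 0.00982), also with p53 KO replicate 3 left out (0.0291), in a fit of only the parental and p53 KO libraries (0.0123) and with no filter on low counts (0.0215). LAMB1 was at 181, 162 and 174 CPM in parental, 150, 186 and 189 in Ctrl and 142, 146 and 136 in p53 KO libraries. All p53 KO libraries were below all controls, with Ctrl replicate 1 nearest to them. LAMB1 fell against Ctrl cells (-0.31 ± 0.09, adjusted p = 0.0284) and was at -0.28 ± 0.09 against parental cells (adjusted p = 0.0562). LAMB2 fell against Ctrl cells (-0.30 ± 0.09, adjusted p = 0.0285) and was at -0.15 ± 0.09 against parental cells (adjusted p = 0.3). The call of LAMB1 against Ctrl cells was lost without Ctrl replicate 2 or 3 or any 1 p53 KO library (adjusted p = 0.0945, 0.0753, 0.075, 0.0631 and 0.0829), and that of LAMB2 without p53 KO replicate 2 or 3 (0.0938 and 0.0892) or without Ctrl replicate 1 and p53 KO replicate 3 (0.0627). Against parental cells LAMB1 passed without Ctrl replicate 1 (-0.29, adjusted p = 0.00146), also with p53 KO replicate 3 left out (0.00234), without Ctrl replicate 3 (0.0428), in the fit of 2 groups (0.0026), with no filter (0.0271) and by DESeq2 (0.0373). Exons of LAMB1 and LAMA5 overlap those of DLD and ADRM1 on the opposite strand, and whether strand was used in counting is not stated.

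LAMA4 fell in p53 KO cells against both controls. It was at 50.5, 43.8 and 50.3 CPM in parental, 51, 64 and 66.3 in Ctrl and 37.7, 36.7 and 32.6 in p53 KO libraries. All p53 KO libraries were below all controls. The log2 fold change was -0.43 ± 0.11 against parental (0.741-fold, adjusted p = 0.0206) and -0.76 ± 0.11 against Ctrl cells (0.59-fold, adjusted p = 0.000414), and Ctrl cells were at 0.33 ± 0.11 against parental cells (adjusted p = 0.0562). The latter passed without Ctrl replicate 1 (0.43, adjusted p = 0.0019), also with p53 KO replicate 3 left out (0.000355), with no filter (0.0265) and by DESeq2 (0.0438). The call against parental cells was lost without parental replicate 1 or 3 or p53 KO replicate 2 or 3 (adjusted p = 0.0844, 0.0798, 0.0537 and 0.0811). LAMA1 and LAMA2, the laminin alpha chains of embryonic and muscle basement membranes, were listed at 1.34 and 1.54 CPM at most. LAMA1 was at 0.385 to 0.554 CPM in parental, 0.211 to 0.839 in Ctrl and 0.761 to 1.34 in p53 KO libraries and did not pass (adjusted p = 0.057 and 0.0688). Against parental cells it passed without Ctrl replicate 1, 2 or 3 or p53 KO replicate 2, in the fit of 2 groups, with replicate numbers as a block, with no filter and by DESeq2 (1.23 to 1.47 on the log2 scale, adjusted p = 0.003 to 0.0464). Against Ctrl cells it passed without Ctrl replicate 3 or p53 KO replicate 2, with the block and with no filter (1.06 to 1.56, adjusted p = 0.00872 to 0.0492).

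**Figure D3:**
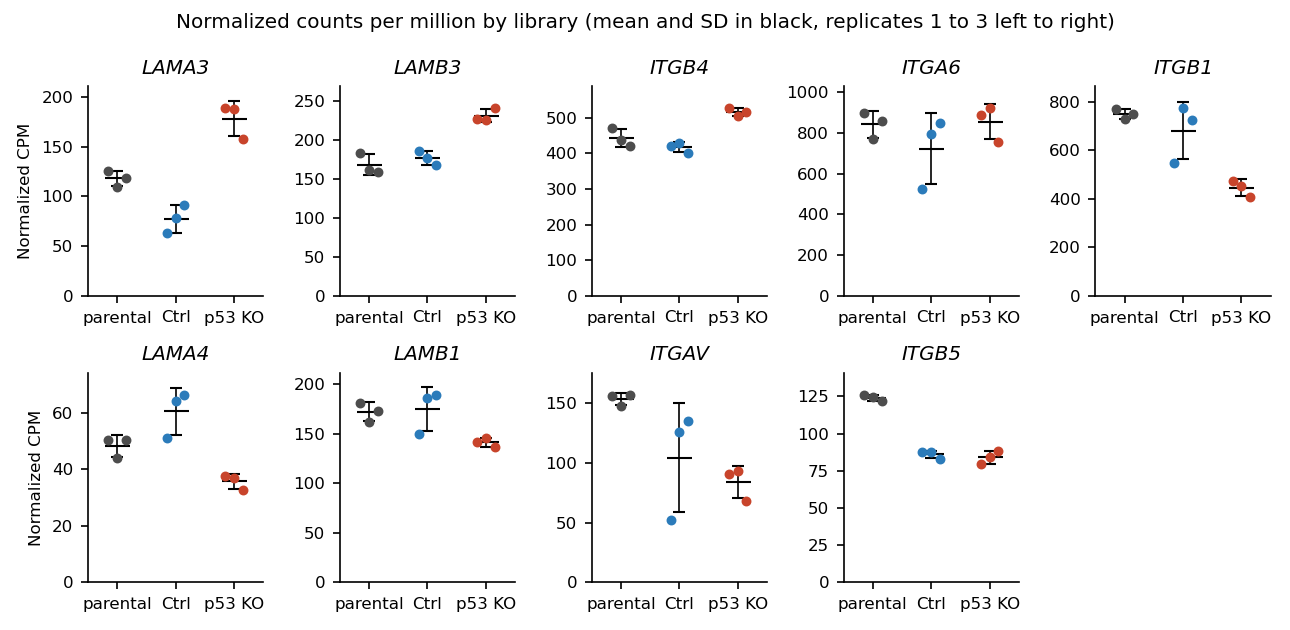
Normalized CPM of 9 members in each library, with replicates 1 to 3 from left to right, the mean as a black line and the SD as error bars, on axes that start at 0. LAMA3, LAMB3 and ITGB4 are above and ITGB1, LAMA4 and LAMB1 below all 6 control libraries in p53 KO cells, and Ctrl replicate 1 is low for ITGA6, ITGB1 and ITGAV.

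Among the receptors, the 2 main beta chains moved in opposite directions. ITGB4, the hemidesmosome chain, was at 470, 439 and 421 CPM in parental, 421, 429 and 402 in Ctrl and 526, 504 and 517 in p53 KO libraries. The p53 KO libraries were above all controls, and the difference was small: 0.22 ± 0.06 on the log2 scale against parental (1.16-fold, adjusted p = 0.0372) and 0.31 ± 0.06 against Ctrl cells (1.24-fold, adjusted p = 0.00425). The call against parental cells was lost without parental replicate 2 or 3, Ctrl replicate 2 or any 1 p53 KO library (adjusted p = 0.125, 0.147, 0.0545, 0.122, 0.0788 and 0.0967). ITGB1 was at 768, 727 and 749 CPM in parental, 548, 772 and 723 in Ctrl and 474, 455 and 406 in p53 KO libraries. The p53 KO libraries were below all controls, and Ctrl replicate 1 lay between them and the rest. ITGB1 fell by 0.75 ± 0.11 on the log2 scale against parental (0.595-fold, adjusted p = 0.00112) and by 0.61 ± 0.11 against Ctrl cells (0.653-fold, adjusted p = 0.00197). Its Ctrl and parental levels differed by -0.14 ± 0.11 (adjusted p = 0.394).

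In every p53 KO library the ratio of ITGB4 to ITGB1 per kb was above that of every control. It was 1.32, 1.30 and 1.21 in parental, 1.65, 1.20 and 1.20 in Ctrl and 2.39, 2.39 and 2.74 in p53 KO libraries. The level of this ratio depends on the gene length used, and with the longest transcripts its mean in p53 KO cells was 1.11 ± 0.09, against 0.564 ± 0.0256 in parental and 0.597 ± 0.117 in Ctrl cells (SD, n = 3). The fold between groups is the same with either length. No test was run on the ratios, which follow from the members' own values.

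The alpha chains ITGA6 and ITGA3, which pair with them to bind laminin, moved less than ITGB1. Against Ctrl cells their log2 fold changes were close in size to that of ITGB4, and no test compared the chains. ITGA6 was at 900, 770 and 858 CPM in parental, 524, 797 and 851 in Ctrl and 888, 921 and 757 in p53 KO libraries, which overlap apart from Ctrl replicate 1. Its log2 fold changes were 0.02 ± 0.15 (adjusted p = 0.939) and 0.24 ± 0.15 (adjusted p = 0.28), and the latter passed with no filter (adjusted p = 0.0255). ITGA3 was at 568 to 623 CPM in parental, 649 to 695 in Ctrl and 555 to 589 in p53 KO libraries. It fell against Ctrl cells only (-0.23 ± 0.06, adjusted p = 0.0164; -0.07 ± 0.06 with adjusted p = 0.497 against parental), and this call was lost without p53 KO replicate 1 or 2 (adjusted p = 0.0721 and 0.0655). Whether the 2 differences themselves differ was tested only as Ctrl against parental cells (0.17 ± 0.06, adjusted p = 0.0825).

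Of the chains that bind fibronectin, vitronectin and latent TGF-beta, ITGAV and ITGB5 were lower in p53 KO than in parental cells, and neither passed against Ctrl cells. ITGAV was at 156, 147 and 157 CPM in parental, 52, 126 and 135 in Ctrl and 90.7, 93 and 68.1 in p53 KO libraries. Ctrl replicate 1 was the lowest library of all, below every p53 KO library. ITGAV passed against parental cells at the threshold (-0.87 ± 0.27, adjusted p = 0.0497) and was at -0.31 ± 0.27 against Ctrl cells (adjusted p = 0.428). Without Ctrl replicate 1 the latter was -0.64 (adjusted p = 0.000231), and without Ctrl replicate 1 and p53 KO replicate 3 it was -0.51 (adjusted p = 1.56e-05), with -0.23 in Ctrl against parental cells (adjusted p = 0.00508). With no filter ITGAV passed in these comparisons as well (adjusted p = 0.0365 and 3.72e-05). The call against parental cells was lost without any 1 parental or p53 KO library or Ctrl replicate 2 (adjusted p = 0.0569 to 0.168). ITGB5 was at 126, 124 and 122 CPM in parental, 87.7, 87.4 and 83 in Ctrl and 79.9, 84.1 and 88.6 in p53 KO libraries. Ctrl and p53 KO libraries overlapped and both were below all parental libraries. ITGB5 fell against parental cells in p53 KO (-0.56 ± 0.07, adjusted p = 0.000298) and in Ctrl cells (-0.53 ± 0.07, adjusted p = 0.00041), with -0.03 ± 0.07 between them (adjusted p = 0.769). ITGA5, ITGB6 and ITGB8 did not pass in any comparison, and ITGA5 was at 0.20 ± 0.07 against Ctrl cells (adjusted p = 0.0577). That difference of ITGA5 passed without Ctrl replicate 1 (0.22, adjusted p = 0.0182), also with p53 KO replicate 3 left out (0.25, adjusted p = 0.00562), and by DESeq2 (0.0321).

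The collagen-binding chains ITGA1 and ITGA2 were lower in Ctrl than in parental cells. In that comparison 4 of the 25 members passed, 0 higher and 4 lower, or 16% against 20.3% of all genes tested (9.69% lower). None of them went beyond a log2 fold change of 1.5 by edgeR or DESeq2, which 1.94% of the genes tested did by edgeR, and 8 members had an unadjusted p under 0.05. Beside LAMA3 and ITGB5 these were ITGA2 and ITGA1. ITGA2 was at 81.4, 71.9 and 77 CPM in parental, 31.4, 56.2 and 56.6 in Ctrl and 84.9, 78.7 and 58.1 in p53 KO libraries. Ctrl libraries were the lowest, and p53 KO replicate 3 was close to them. ITGA2 was lower in Ctrl than in parental cells (-0.67 ± 0.20, adjusted p = 0.0397) and higher in p53 KO than in Ctrl cells (0.62 ± 0.20, adjusted p = 0.0406). ITGA1 was at 3.6, 3.58 and 3.64 CPM in parental, 1.73, 1.93 and 2.59 in Ctrl and 1.78, 2.21 and 1.34 in p53 KO libraries. It fell against parental cells in Ctrl (-0.78 ± 0.19, adjusted p = 0.0166) and in p53 KO cells (0.499-fold with an SE of 0.19 on the log2 scale, adjusted p = 0.0044). ITGA1 holds PELO within its exons on the same strand, whose counts reached 1456 against 94 for ITGA1, so that its reads are uncertain. The count of 4 was 2 without any 1 parental library, as ITGA1 (adjusted p = 0.0579, 0.0515 and 0.0544) and ITGA2 (0.125, 0.0772 and 0.101) were lost. ITGA1 was also lost without Ctrl replicate 2 (0.0587) and ITGA2 without p53 KO replicate 1 or 2 (0.0502 and 0.0578). The call of ITGA2 against Ctrl cells was lost without any 1 parental library or p53 KO replicate 1 or 2 (adjusted p = 0.0572 to 0.146).

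ITGAE, ITGAM, ITGB7 and ITGA7, which are known from leukocytes and muscle, were tested at low levels. With the filter on low counts and all 9 libraries in 1 fit, they did not pass in any comparison. ITGAE, the partner of ITGB7 and a receptor of E-cadherin on lymphocytes, was highest, at 9.95 to 15.9 CPM over the 9 libraries. Exons of ITGAE and ITGB7 overlap those of GSG2 and ZNF740 on the opposite strand, which held up to 983 and 1525 counts. ITGAM was at 0.385 to 0.65 CPM in parental, 0.051 to 0.305 in Ctrl and 0.149 to 0.268 in p53 KO libraries. Without Ctrl replicate 1, ITGAE passed against parental (0.33, adjusted p = 0.0184) and Ctrl cells (0.37, adjusted p = 0.018) and ITGAM against parental cells (-1.21, adjusted p = 0.0344). With p53 KO replicate 3 left out as well, ITGAE passed against Ctrl cells only (0.31, adjusted p = 0.0385). In the fit of 2 groups both passed against parental cells (0.0206 and 0.0384). In Ctrl against parental cells, ITGAM passed without Ctrl replicate 3 (-1.71, adjusted p = 0.0368) and ITGB7 with no filter (0.92, adjusted p = 0.036).

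**Figure D4:**
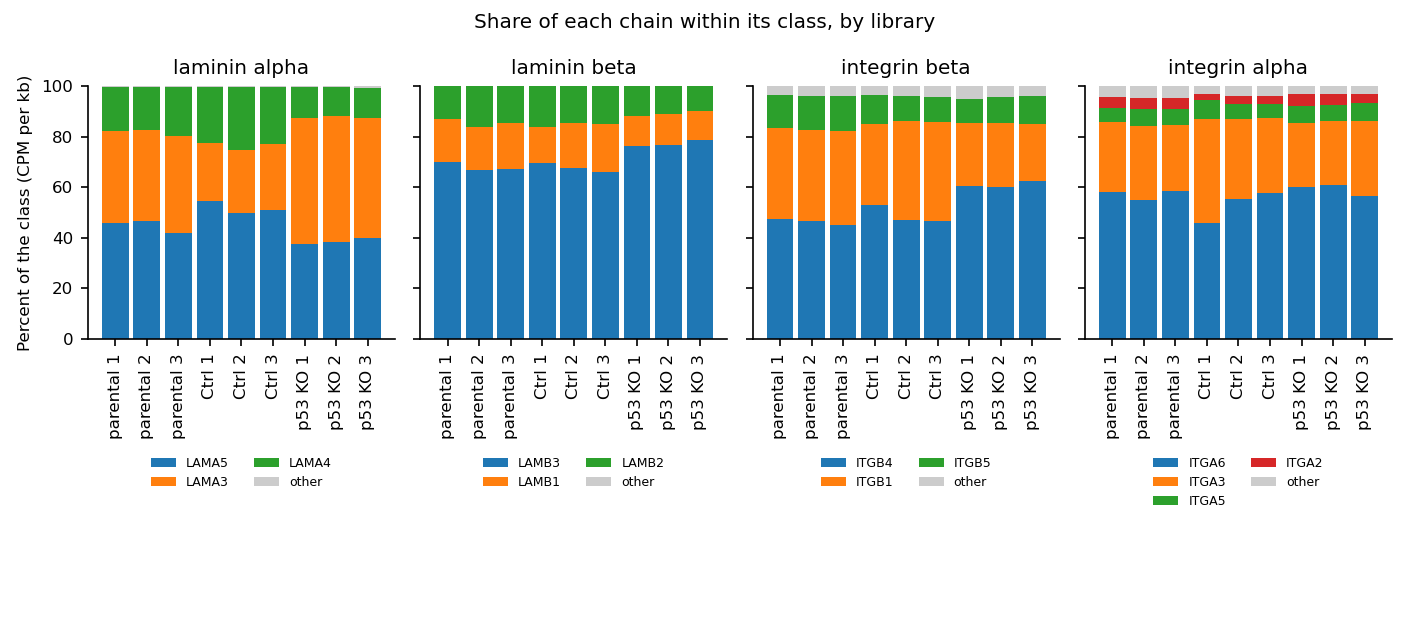
Share of each chain within its class (laminin alpha, laminin beta, integrin beta and integrin alpha) in each library, in percent of the summed CPM per kb of the class. The gene length is that of all exons. In p53 KO libraries LAMA3 takes 47.5% to 49.8% of the laminin alpha class and ITGB4 60.2% to 62.3% of the integrin beta class, above all control libraries.

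Within each class of chains, the make-up differed between the groups for laminin alpha, laminin beta and integrin beta chains. LAMA3 made up 36.8% ± 1.27 (SD, n = 3) of the laminin alpha chains in parental cells, 24.6% ± 1.58 in Ctrl cells and 48.9% ± 1.26 in p53 KO cells. LAMA5 made up 44.7% ± 2.55, 51.7% ± 2.47 and 38.8% ± 1.22, and LAMA4 18.2% ± 1.24, 23.3% ± 1.39 and 11.9% ± 0.175. LAMA3 was therefore the leading alpha chain only in p53 KO cells, where its ratio to LAMA5 per kb was 1.18 to 1.32, against 0.77 to 0.915 in parental and 0.419 to 0.508 in Ctrl cells. LAMB3 rose from 68.0% ± 1.64 and 67.8% ± 1.75 in parental and Ctrl to 77.3% ± 1.30 in p53 KO cells. ITGB1 made up 36.4% ± 0.793, 36.7% ± 4.03 and 24.4% ± 1.43 of the integrin beta chains. The shares of ITGA6 among integrin alpha chains were 57.2% ± 1.85, 52.9% ± 6.31 and 59.0% ± 2.26 and overlapped. All shares depend on the gene length used, which was that of all exons. With the longest transcripts ITGB1 was above ITGB4 in parental (133 against 75.2 CPM per kb) and Ctrl cells (121 against 70.8). In p53 KO cells ITGB1 was below ITGB4 (79.3 against 87.5). By this length LAMB3 was at 39.0 and LAMB1 at 25.6 in parental cells, and at 53.7 and 21.0 in p53 KO cells.

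For 6 of the 25 members tested, the p53 KO libraries did not overlap the 6 control libraries. LAMA3, LAMB3 and ITGB4 were above them, and ITGB1, LAMA4 and LAMB1 were below. Over all genes tested this held for 22%, 11.9% above and 10.1% below, so that the share of the members was close to that of all genes.

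The genes around LAMA3, LAMB3, ITGB4 and LAMA4 were close to 0 in both comparisons. Within 5 Mb on each side, the tested genes around LAMA3 on chromosome 18 had a median log2 fold change of -0.05 against parental and 0.09 against Ctrl cells (22 genes), and those around LAMB3 on chromosome 1 had -0.06 and 0.06 (66 genes). Around ITGB4 on chromosome 17 the medians were 0.06 and -0.04 (107 genes) and around LAMA4 on chromosome 6 they were -0.10 and -0.01 (49 genes). ITGB1 on chromosome 10 lay among genes that were lower against parental cells (-0.36 against parental, -0.15 against Ctrl, 28 genes). The genes around LAMB1 on chromosome 7 were at a lower median than LAMB1 itself, -0.46 and -0.42 (39 genes). Around ITGB5 on chromosome 3 the medians were -0.33 and -0.52 (77 genes), while Ctrl against parental cells gave 0.25 there. The part of the region in the change of ITGB1, LAMB1 and ITGB5 was not tested. ITGA1 and ITGA2 lie 30.1 kb apart.

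**Figure D5:**
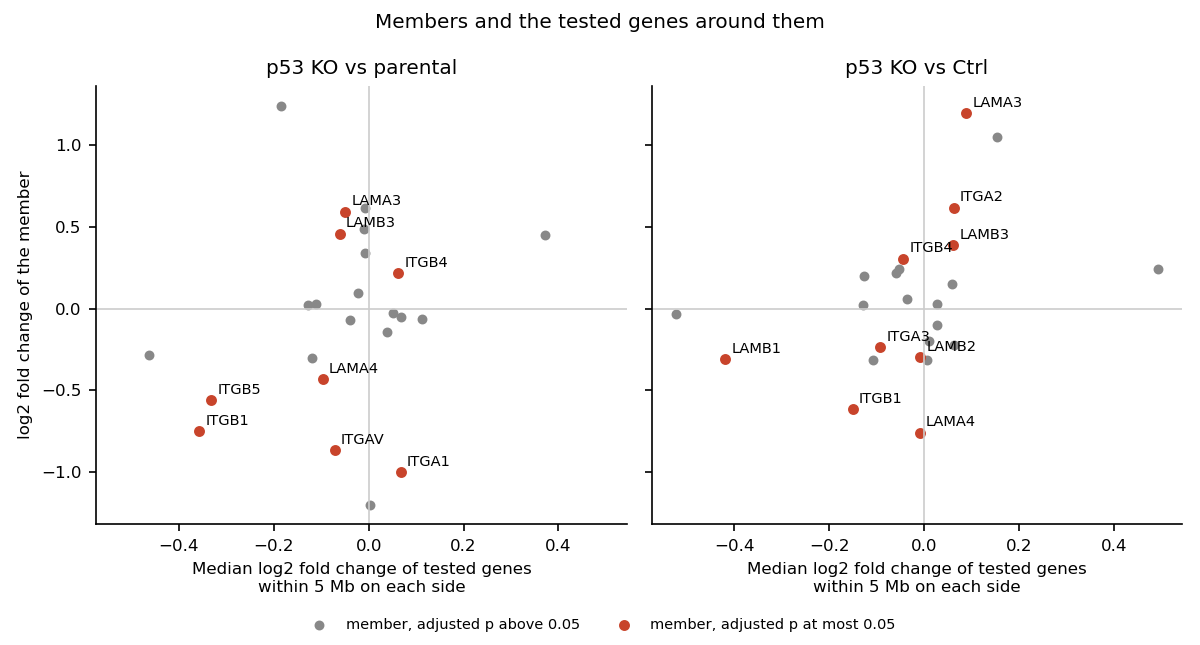
Log2 fold change of tested members against the median log2 fold change of the tested genes within 5 Mb on each side, for p53 KO against parental and against Ctrl cells, with members that passed the test in red. ITGB1, ITGB5 and LAMB1 lie to the left, at medians between -0.15 and -0.52, and LAMA3, LAMB3, ITGB4 and LAMA4 near 0.

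Among the partners of these chains, COL17A1, the transmembrane collagen of hemidesmosomes, was the only 1 of 4 hemidesmosome genes that rose against both controls. It was at 107, 95.7 and 96.1 CPM in parental, 86.3, 92.2 and 103 in Ctrl and 275, 288 and 271 in p53 KO libraries. Its log2 fold changes were 1.48 ± 0.08 (adjusted p = 1.98e-06) and 1.57 ± 0.08 (adjusted p = 4.55e-07). Of the others in the list, PLEC and DST did not pass against either control, and CD151 fell against Ctrl cells only (-0.34 ± 0.12, adjusted p = 0.0497 by edgeR). Of 23 genes that regulate integrins or link them to actin, 1 rose and 7 fell against parental, 5 rose and 6 fell against Ctrl cells, and 1 rose and 4 fell against both. Over all genes tested 9.77% rose and 8.36% fell against parental cells, 15% and 14.2% against Ctrl cells, and 6.46% and 5.25% against both. TNS4, a tensin that binds integrin beta tails, rose by 0.99 ± 0.11 and 1.93 ± 0.11 on the log2 scale (adjusted p = 0.000186 and 1.02e-06), and it fell by 0.94 ± 0.12 in Ctrl against parental cells (adjusted p = 0.000334). PTK2, the focal adhesion kinase, fell by 0.59 ± 0.08 and 0.61 ± 0.08 (adjusted p = 0.00045 and 0.000175). ZYX, or zyxin, was at -0.53 ± 0.09 and -0.51 ± 0.09 (adjusted p = 0.0026 and 0.00167), and the fold changes of TLN2 and RSU1 were smaller than those of PTK2.

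Of 4 laminin receptors that are not integrins, 0 rose and 1 fell against parental and 0 rose and 2 fell against Ctrl cells. Among all genes tested, 9.77% rose and 8.36% fell against parental cells, 15% and 14.2% against Ctrl cells, and 6.46% and 5.25% against both. SDC1 fell against Ctrl cells only (-0.37 ± 0.09, adjusted p = 0.00799 by edgeR). BCAM, which binds LAMA5, fell against both controls. It was at 100, 96.1 and 92 CPM in parental, 139, 138 and 125 in Ctrl and 31.5, 26.8 and 31.4 in p53 KO libraries (-1.69 ± 0.09 and -2.16 ± 0.09, adjusted p = 1.19e-06 and 6.26e-08). BCAM rose in Ctrl against parental cells (0.48 ± 0.08, adjusted p = 0.00284 by edgeR), so that its difference from Ctrl cells holds a change of the control. Of 17 other basement membrane genes, 10 were tested. Of these 1 rose and 2 fell against parental, 4 rose and 5 fell against Ctrl cells, and COL18A1 rose while COL4A5 and HSPG2 fell against both, beside the same shares of all genes tested. COL4A5, a type IV collagen chain, was at 12.6 to 12.9 CPM in parental, 11.8 to 16 in Ctrl and 4.71 to 5.21 in p53 KO libraries (-1.34 ± 0.12 and -1.45 ± 0.12). HSPG2, or perlecan, was at -0.50 ± 0.14 and -0.56 ± 0.14 (adjusted p = 0.0324 and 0.0119). COL18A1 was at 7.19 to 8.49 CPM in parental, 1.16 to 1.26 in Ctrl and 12.4 to 13.7 in p53 KO libraries, so that most of its difference from Ctrl cells was also one between the controls (-2.70 ± 0.13 in Ctrl against parental cells).

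Of 16 other integrin ligands in the table, 7 were tested. Of these 2 rose and 2 fell against parental and 4 rose and 1 fell against Ctrl cells. Over all genes tested 9.77% rose and 8.36% fell against parental cells, and 15% and 14.2% against Ctrl cells. In Ctrl against parental cells 0 of the ligands rose and 4 fell, where 10.6% and 9.69% of all genes tested did. Against both controls THBS1 and TGFBI rose and FN1 fell, where 6.46% and 5.25% of all genes tested did. FN1, or fibronectin, was at 58.2, 43.4 and 51.8 CPM in parental, 40.6, 51.8 and 56 in Ctrl and 33.8, 32.1 and 29.6 in p53 KO libraries (-0.68 ± 0.13 and -0.64 ± 0.13, adjusted p = 0.00501 and 0.00437). THBS1, or thrombospondin, was at 465 to 611 CPM in parental, 135 to 225 in Ctrl and 657 to 857 in p53 KO libraries (0.57 ± 0.17 and 2.13 ± 0.18, adjusted p = 0.0425 and 1.11e-05). In Ctrl against parental cells it fell by 1.56 ± 0.18 (adjusted p = 0.000196). TGFBI was at 0.28 ± 0.08 and 0.51 ± 0.08 (adjusted p = 0.0261 and 0.000537).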

How the data were processed

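Poly(A) RNA-Seq libraries of A431 parental, Ctrl and p53 KO cells were analysed, 3 per group, assigned to groups by their GEO titles. The authors aligned paired-end reads from strand-specific libraries with STAR 2.5.1b to GRCh38 and deposited whole-number counts per Ensembl gene, obtained with featureCounts, without normalization. Every column of the table matched 1 library. No 2 libraries agreed within sampling noise.

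edgeR 4.0.16 (R 4.3.3) was used on the counts: filterByExpr at a minimum count of 10 (14513 genes), TMM normalization, 1 mean per group over all 9 libraries, and quasi-likelihood tests adjusted by Benjamini-Hochberg across these genes. A gene passed at an adjusted p-value of at most 0.05. Alternatives were DESeq2 1.42.0, its size factors in edgeR, no filter, a minimum of 10 counts throughout, a block for replicate number, a fit of 2 groups at a time, a log2 fold change beyond 1.5, the longest transcript as gene length, and each library left out. Depth was 19783778 to 29840452 counts per library, and limits from counts cover counting error only. Replicate numbers did not pair the libraries. Positions and exon lengths came from GENCODE release 44, which held all 38 members and 14397 of the genes tested. Motifs were matched exactly on both strands. Figures were drawn with matplotlib 3.10.9.

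Members and gene lists were chosen with earlier results of these data known. Values are given for the members that passed against both controls, LAMA5, LAMB1, LAMC1, ITGA6, ITGB4, ITGB1 and ITGAV, up to 5 members that passed between the controls, and up to 4 genes of each partner list. Other members are given by range or count, and genes beyond this rule were chosen after their values were seen. Some items of the rule are not reported here. Protein, imaging and survival data were not analysed here.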

Additional observations from a re-analysis of the deposited data

How the results depend on the processing

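LAMA3, LAMB3 and ITGB1 passed against both controls in the same direction under every alternative except the log2 fold change threshold of 1.5, under which 0 members passed in any comparison by edgeR, and 0 by DESeq2. No fitted fold change that passed the test changed sign under any alternative run. Members that passed against parental cells numbered 13 when only the 2 groups compared were fitted (33.4% of all genes), and those in Ctrl against parental cells numbered 7 with no filter beyond 1 count (15.3%). Leaving out each library in turn gave 5 to 13 members in p53 KO against parental cells, 3 to 8 against both controls, 2 to 5 in Ctrl against parental cells and 6 to 13 in p53 KO against Ctrl cells, while the shares of all genes were 10.7% to 33.9%, 8.01% to 19.9%, 9.58% to 30.2% and 21.2% to 35.3%. Same-numbered libraries did not deviate together (r from -0.50 to 0.07 over 9 pairs). With the replicate number as a block, 4 members passed against both controls, ITGB1, LAMA1, LAMA3 and LAMB3, of which 3 were among the 5 (8.36% of all genes). Alternatives chosen after seeing the data were DESeq2 with the threshold of 1.5, the longest transcript for the ratio of ITGB4 to ITGB1, and leaving out Ctrl replicate 1 with p53 KO replicate 3, which gave 7 members against both controls, the 5 with ITGAV and LAMB1, where 19.6% of all genes tested passed against both, 31% against parental and 38.3% against Ctrl cells. DESeq2 size factors changed no call. Against parental cells, the call of ITGB4 was lost with no filter (adjusted p = 0.0701) and with the block (0.0889), that of LAMA4 with the block (0.0618), and that of ITGAV with DESeq2 (0.0659), with at least 10 counts in every library (0.0533) and with the block (0.0857), by DESeq2's Wald test in the DESeq2 case and edgeR's quasi-likelihood test otherwise. Against Ctrl cells, the block lost ITGA2, ITGA3, LAMB1 and LAMB2 (adjusted p = 0.0791, 0.0546, 0.0712 and 0.0591 by edgeR) and the fit of 2 groups lost ITGA2, LAMB1 and LAMB2 (0.0945, 0.0648 and 0.0527). In Ctrl against parental cells ITGA2 was lost with the block (0.0805) and in the fit of 2 groups (0.0569). Members that gained a call under an alternative are given in the report. The low counts of ITGAM, ITGB7, ITGA7, LAMA1 and LAMA2 limit the precision of their fold changes, and the cause of the deviation of Ctrl replicate 1 was not tested.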
